A study of Homo sapiens with 8 samples.

Results

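The widest stretches of chromatin bound by p63 in squamous carcinoma cells, those of 1500 bp or more, are described here. They number 835 of the 15267 distinct p63 regions listed for the CAL27 and SCC13 lines, or 5.47% (95% exact binomial interval 5.11 to 5.84). Members were chosen by width alone, as the end position minus the start position in hg19 coordinates, so widths are given as a description. The other 14432 regions, called narrower below, were the comparison.

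CAL27 and SCC13 are established human squamous cell carcinoma lines, labelled as wild type and untreated, and each line stands for 1 tumour. CAL27 was grown in DMEM F:12 with serum and SCC13 in Keratinocyte-SFM with pituitary extract, EGF and added calcium, so line and medium cannot be told apart. The 8 samples form 4 groups of 2 (in each line, immunoprecipitation with a p63 antibody, and samples whose title says none), and 1 list of regions per line stands for both p63 replicates. No replicate spread could be computed, and neither sequencing depth nor peak height was used here. Intervals cover counting error only, and p-values compare sets of regions treated as independent, which neighbouring regions are not.

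The factor p63, encoded by TP63, belongs to the p53 family and binds DNA as a tetramer. It maintains basal keratinocytes, where it binds mostly enhancers of adhesion, keratin and differentiation genes, and its gene is often gained in squamous tumours. The width of a region is the extent of enriched signal as peak calling drew it, and it is no measure of binding strength by itself.

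Members ranged from 1500 to 3456 bp with a median of 1718 bp and quartiles of 1586 and 1934 bp. Narrower regions had a median of 751 bp. Members held 11.6% of all listed sequence, 1.502 of 12.94 Mb. The limit cut through a smooth tail, with 153 regions of 1450 to under 1500 bp just outside it and 126 of 1500 to under 1550 bp just inside. Exactly at the limit of 1500 bp lay 7 members, among them those in bands 11q21, 13q31.1 and 20p12.2, and the 3 regions just outside were 1499 bp in 4q34.3 and 1498 bp in 11p14.1 and 17q22. Only 6 regions exceeded 3000 bp.

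**Figure D1:**
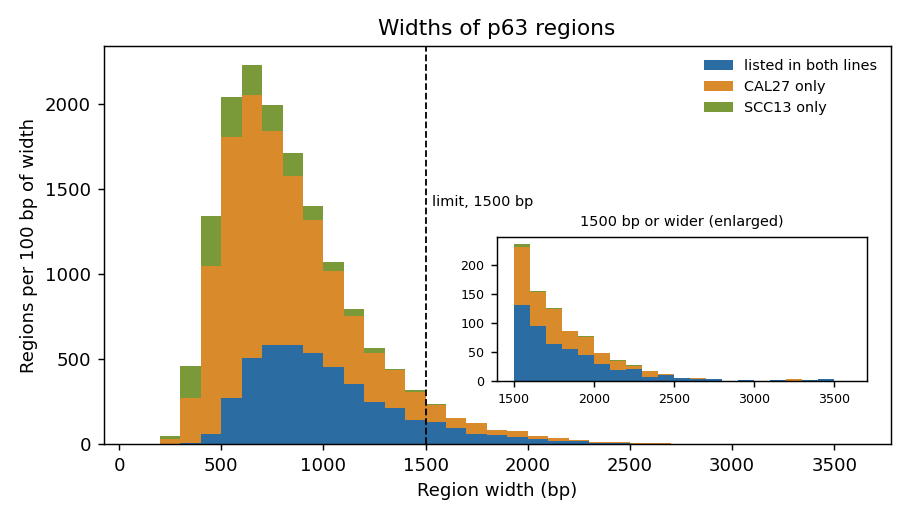
Number of p63 regions per 100 bp of width (x axis, bp; y axis, regions), stacked by the line that listed them, with the limit of 1500 bp as a dashed line and the members enlarged in the inset. The members form the right tail of a single-peaked distribution, and the tail is mostly regions listed in both lines or in CAL27 only.

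Most members were listed in both lines, and almost none in SCC13 alone. Of the 835, 483 were in both lists (57.8%, 54.4 to 61.2), 337 in CAL27 only (40.4%, 37.0 to 43.8) and 15 in SCC13 only (1.796%, 1.01 to 2.95). Among narrower regions the shares were 27.5% (26.7 to 28.2), 62.7% (61.9 to 63.5) and 9.86% (9.38 to 10.4). Members made up 10.9% of the regions in both lists, 3.59% of those in CAL27 only and 1.04% of those in SCC13 only. Positions of regions listed in both lines were identical, as in a common set of calls, so width and the number of lines in which a region was called cannot be told apart, and the listing was not tested.

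Within the members, the share in both lines was highest in the widest class, which held 20 regions. The percentage in both lines was 57.3% (52.7 to 61.9) at 1500 to under 1750 bp, 55.9% (49.1 to 62.5) at 1750 to under 2000 bp, 60.3% (51.6 to 68.6) at 2000 to under 2500 bp and 75% (50.9 to 91.3) for the 20 regions of 2500 bp or more. These 4 intervals overlap, that of the widest class is broad, and a change with width was not tested. At 1250 to under 1500 bp, just outside the limit, it was 46.3% (43.2 to 49.4), and under 500 bp it was 3.67% (2.86 to 4.63). Median widths of the members were 1724 bp for those in both lines, 1715 bp for CAL27 only and 1711 bp for SCC13 only. Taken by list, members were 8.46% of the 5886 SCC13 regions (7.76 to 9.20) and 5.93% of the 13829 CAL27 regions (5.54 to 6.34). Among regions in 1 list only the order was the other way, 1.04% in SCC13 and 3.59% in CAL27. Each shared region has 1 position for both lists, so these shares do not compare widths measured in each line. Of the 498 SCC13 members 97.0% were also CAL27 members, against 58.9% (55.4 to 62.3) of the 820 CAL27 members in the other direction. Narrower regions were uneven in the same way, with 73.6% (72.4 to 74.8) of those in SCC13 also in CAL27, and 30.5% (29.7 to 31.3) in the other direction.

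**Figure D2:**
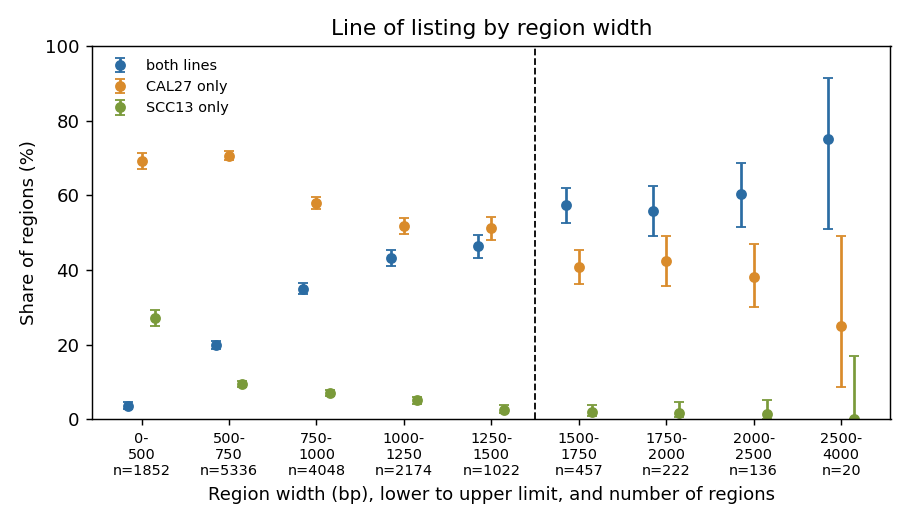
Share of regions listed in both lines, in CAL27 only and in SCC13 only (y axis, %) by region width (x axis, bp, with the number of regions), with 95% exact binomial intervals and the limit of 1500 bp as a dashed line. The share in both lines is 3.67% in the narrowest group and 57.3% just above the limit, and the intervals of the 4 groups of members overlap.

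The 10 widest members lay on 8 chromosomes, and 8 of the 10 were listed in both lines. The widest, 3456 bp at chr3:159480918-159484373 in band 3q25.33, had its nearest p63 region 16.8 kb away. The 3420 bp region at chr1:153537808-153541227 lay in 1q21.3, where genes of the cornified envelope and the S100 family are clustered in the epidermal differentiation complex; its nearest neighbour was 5.44 kb away. At chr1:32039509-32042843, in 1p35.2, a 3335 bp region had a 721 bp region only 0.565 kb from its edge. The 2 widest members listed in CAL27 only followed, 3234 bp at chr17:60745713-60748946 in 17q23.2 and 3223 bp at chr16:87885100-87888322 in 16q24.2. Their nearest other members were 52.7 kb and 43.7 kb away.

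The remaining 5 of these 10 were in both lists. They were a 3113 bp region at chr9:138999280-139002392 in 9q34.3, a 2969 bp region at chr15:70486377-70489345 in 15q23, a 2764 bp region at chr5:36450706-36453469 in 5p13.2, a 2735 bp region at chr1:161449978-161452712 in 1q23.3 and a 2734 bp region at chr7:1597757-1600490 in 7p22.3. Among the 10, 3 had another p63 region within 10 kb, 2 had another member within 50 kb, and 6 lay in G-negative bands, the pale bands of Giemsa staining. Over all members these shares were 31.5%, 13.5% and 61.9%. The share in both lines was 80% of the 10 widest, 75% of the 20 widest and 63% of the 100 widest. The third widest member listed in CAL27 only, of 2638 bp, was at chr6:33718207-33720844 in 6p21.31.

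The 15 members listed in SCC13 only were spread over 10 chromosomes, and 11 of them lay in G-negative bands, which held 61.9% of all members. The widest 2 were both in band 11p13, the band of EHF and ELF5, which encode epithelial ETS factors, and of CD44, a hyaluronan receptor of basal cells. They were 2255 bp at chr11:34877498-34879752 and 2196 bp at chr11:34686135-34688330, and the second lay 17.96 kb from another member. The third, 1980 bp at chr3:157283728-157285707, was in 3q25.32. None of the 20 widest members was listed in SCC13 only (interval 0 to 16.8%), against 1.796% of all members, and a difference was not tested.

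Members lay closer to other p63 regions than narrower regions did. Another region lay within 10 kb, edge to edge, of 263 of 835 members (31.5%, 28.4 to 34.8) and of 3233 of 14432 narrower regions (22.4%, 21.7 to 23.1), a ratio of 1.41 (interval 1.27 to 1.56; two-sided Fisher's exact test, p = 1.07e-08 after adjustment over 17 comparisons of neighbours). The ratio was 1.85 (1.38 to 2.47; adjusted p = 1.99e-04) at 1 kb and 1.14 (1.11 to 1.17; adjusted p = 1.45e-13) at 100 kb by the same exact test. The median distance to the nearest region was 21.5 kb for members (quartiles 6.59 and 56.4 kb) and 35.7 kb for narrower regions (11.7 and 94.7 kb). Within G-negative bands alone the shares were 33.3% and 24.8%, a ratio of 1.34 (interval 1.18 to 1.52; adjusted exact p = 6.79e-05).

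**Figure D3:**
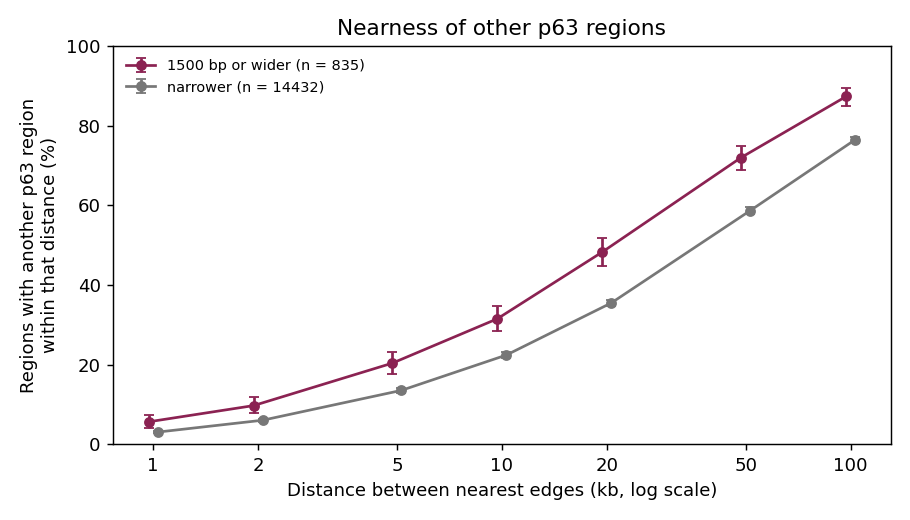
Share of regions with another p63 region within a given distance (y axis, %; x axis, kb between nearest edges, log scale) for members and narrower regions, with 95% exact binomial intervals. Members lie above narrower regions at all 7 distances, by 9.10 points at 10 kb.

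This nearness was found in both listing classes that hold enough members to compare. Among regions in both lines the shares within 10 kb were 30.8% of members and 23.96% of narrower regions (ratio 1.29, 1.11 to 1.49; exact test, adjusted p = 0.00143). Among regions in CAL27 only they were 32.6% and 23.03% (ratio 1.42, 1.21 to 1.66; exact test, adjusted p = 1.22e-04). A difference in the listing of the neighbours was not detected. Where the nearest region was narrower and within 10 kb, it was listed in both lines for 31.3% of 224 members (25.2 to 37.8) and for 28.5% of 2992 narrower regions (26.9 to 30.1), a difference of 2.77 points and a ratio of 1.10 (interval 0.896 to 1.34; adjusted exact p = 0.424).

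Members also stood next to one another. Of regions with a neighbour within 10 kb, that neighbour was itself a member for 39 of 263 members (14.8%, 10.8 to 19.7) and for 241 of 3233 narrower regions (7.45%, 6.57 to 8.41), a ratio of 1.99 (interval 1.45 to 2.72; by Fisher's exact test, adjusted p = 1.73e-04). In this and the other neighbour comparisons, 2 regions near each other were each counted. The intervals and p-values do not allow for this and overstate the evidence. Joined over gaps of at most 50 kb, 113 members (13.5%) formed 55 groups, 52 pairs and 3 groups of 3. All members were in both lists in 18 of the 55 groups, and in 13 no member was. Of all members 57.8% were in both lists, and listing within groups was not tested.

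The groups of 3 lay in 17q25.2, 5q33.1 and 11p13. In 17q25.2, regions of 1941, 2025 and 1506 bp, all in both lists, spanned 34.4 kb at chr17:75250911-75285329 with no other p63 region between them. In 5q33.1, regions of 1626, 1801 and 2021 bp spanned 45.9 kb at chr5:150949739-150995605, with 1 of 3 in both lists. In 11p13, regions of 1581, 2196 and 1789 bp spanned 59.7 kb at chr11:34648406-34708080, and the middle one was the SCC13-only member described above.

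The 4 smallest gaps between members were shorter than the members themselves. The pair in 17q25.2, at chr17:75281643-75283667 and chr17:75283824-75285329, was separated by 156 bp. In 15q13.3, regions of 1549 and 1778 bp at chr15:31689137-31690685 and chr15:31690975-31692752, both in CAL27 only, were 289 bp apart. In 7p22.1 a 1607 bp region listed in CAL27 only, at chr7:5466468-5468074, and a 1580 bp region in both lists, at chr7:5468601-5470180, were 526 bp apart.

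A pair in 1p36.11 had nearly equal widths and unequal listing. The first, 2393 bp at chr1:27184127-27186519, was in CAL27 only, and the second, 2394 bp at chr1:27187303-27189696, was in both lists, with 783 bp between them. This band holds SFN, a cell cycle inhibitor and known target of the p53 family. The fifth pair, in 7q11.22 at chr7:69781603-69783156 and chr7:69784769-69786835, was 1.61 kb apart and in both lists. Across the union the smallest gap was 66 bp, and 29 members had another region within 500 bp. Of 101 pairs of narrower regions within 500 bp of each other, 94 would have passed 1500 bp if joined, so the number of members depends on how nearby calls were joined, a step not given in the sources used here.

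Members were scarce in the dark bands of Giemsa staining, which are poor in genes. The share of regions that were members was 5.98% (5.49 to 6.50) in G-negative bands, 6.02% and 6.18% in the palest 2 classes of G-positive bands, 3.74% (2.88 to 4.77) in the next darker class and 3.01% (2.18 to 4.05) in the darkest. In the darkest class lay 42 members (5.03%) and 9.37% of narrower regions, a ratio of 0.537 (interval 0.398 to 0.724; by Fisher's exact test, adjusted p = 3.87e-05 over 5 classes). The next darker class held 7.43% and 11.1%, a ratio of 0.671 (interval 0.526 to 0.856; adjusted exact p = 0.00180), and G-negative bands held 61.9% and 56.3%, a ratio of 1.10 (interval 1.04 to 1.16; adjusted exact p = 0.00261). Thus 3 of 5 classes passed (60%), 2 lower (40%) and 1 higher (20%). Among regions in both lines only the darkest class passed (ratio 0.601; exact test, adjusted p = 0.0474).

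**Figure D4:**
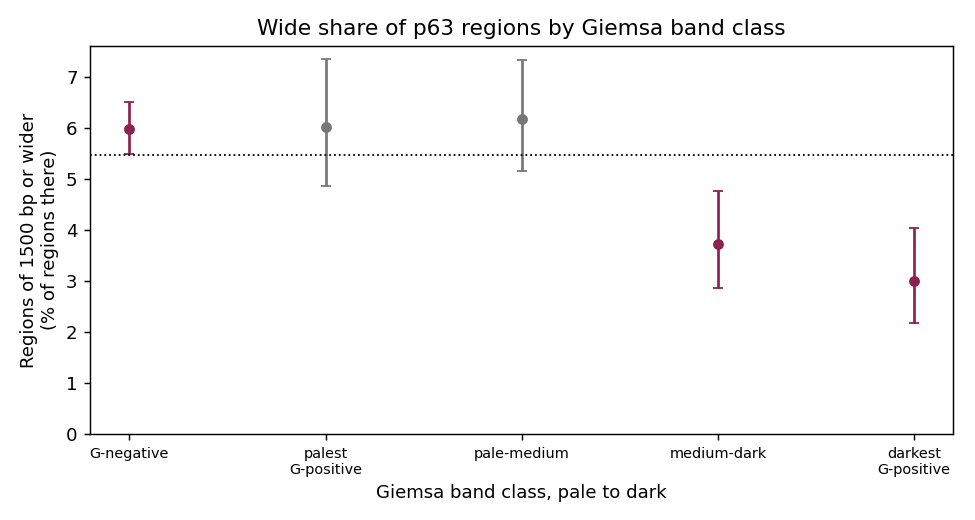
Share of p63 regions that are 1500 bp or wider (y axis, %) in 5 Giemsa band classes from pale to dark (x axis), with 95% exact binomial intervals, the share over all regions as a dotted line, and classes that passed Fisher's exact test in dark red. The share is 5.98% in G-negative bands and 3.01% in the darkest bands.

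Chromosomes 3, 4, 18 and X held fewer members than their narrower regions would give, and chromosome 11 held more. These were 5 of 23 chromosomes tested (21.7%), 4 with a lower share (17.4%) and 1 with a higher (4.35%). Chromosome 4 had 10 members among 594 regions (1.68%, 0.810 to 3.07), and its share of members was 0.296 times its share of narrower regions (0.159 to 0.551; Fisher's exact test, adjusted p = 7.50e-05). On X 6 of 329 regions were members (ratio 0.321, 0.144 to 0.718; exact test, adjusted p = 0.0152), on chromosome 18 5 of 262 (ratio 0.336, 0.139 to 0.813; adjusted p = 0.0388) and on chromosome 3 34 of 945 (ratio 0.645, 0.461 to 0.902; adjusted p = 0.0388). Chromosome 11 had 58 members among 755 regions (7.68%, ratio 1.44, 1.11 to 1.86, exact test, adjusted p = 0.0388). Similar ratios that did not pass were found on chromosome 21 (7.89%, ratio 1.48, 0.920 to 2.39, exact test, adjusted p = 0.305) and chromosome 17 (7.54%, ratio 1.41, 1.06 to 1.87, adjusted p = 0.0977). With a limit of 1200 bp the call on chromosome 11 was lost (ratio 1.12; exact test, adjusted p = 0.495), while chromosomes 3, 4, 18 and X passed, as did 1 and 17; chromosome 18 fell short with neighbours within 10 kb counted once (exact test, adjusted p = 0.0501).

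The part of band content in these shares was not tested. The darkest 2 classes held 27.1% of regions on chromosome 4, 25.2% on X, 22.5% on chromosome 18 and 22.2% on chromosome 3, against 20.0% of all regions, 18.1% on chromosome 11 and 33.7% on chromosome 7, whose share of members (6.32% of its regions) did not pass. Within G-negative bands all 5 ratios kept their side of 1, from 0.242 on chromosome 18 to 1.66 on chromosome 11, but 0 of 23 chromosomes passed (exact test, adjusted p from 0.0664 to 0.330 for these 5). With only regions listed in both lines, chromosome 4 alone passed, with a ratio of 0.298 (exact test, adjusted p = 0.00394).

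**Figure D5:**
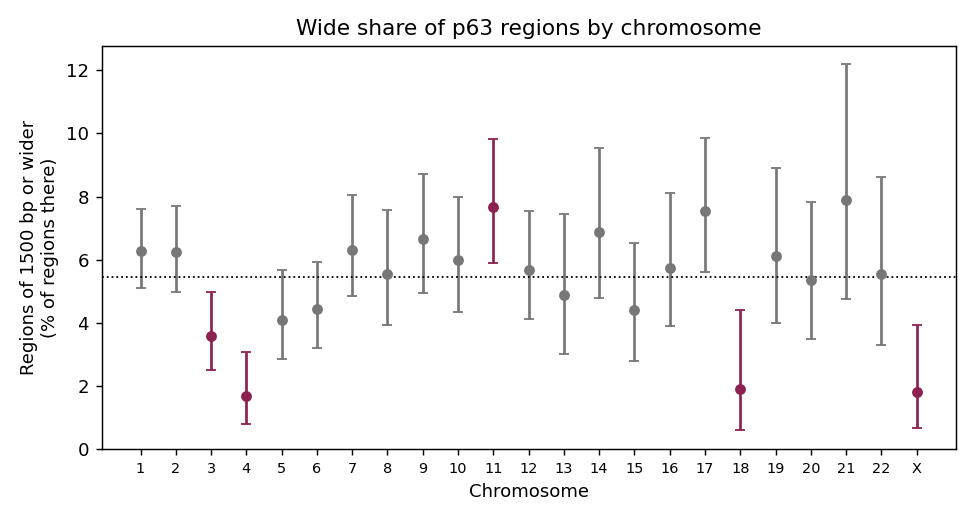
Share of p63 regions that are 1500 bp or wider (y axis, %) on each chromosome (x axis), with 95% exact binomial intervals, the share over all regions as a dotted line, and chromosomes that passed Fisher's exact test in dark red. Chromosome 4 is lowest at 1.68%, and chromosome 11 is the chromosome that passed above the line, at 7.68%. Chromosome 21, at 7.89%, is higher and did not pass.

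By chromosome arm, a division chosen with the data in view, the arms that passed with fewer members were 3p, 4q, 10p and 18q. With 11p these were 5 of 41 arms tested (12.2%), 4 with a lower share (9.76%) and 1 with a higher (2.44%). Neither arm of X passed (Xp, ratio 0.219, and Xq, ratio 0.419, exact test, adjusted p = 0.0665 and 0.295). Arm 4q had 3 members among 416 regions (ratio 0.126, 0.0404 to 0.390; Fisher's exact test, adjusted p = 1.11e-05), 3p had 2 among 286 (ratio 0.122, 0.0303 to 0.488; adjusted p = 6.35e-04) and 18q had 1 among 178 (ratio 0.0976, 0.0137 to 0.696; adjusted p = 0.00792). Arm 10p had 0 members among 155 regions, which allows a share of up to 1.94% by a limit of 3 counts and 2.35% by the exact interval (Fisher's exact test, adjusted p = 0.00362). Arm 11p had 28 among 279 (ratio 1.93, 1.31 to 2.83, exact test, adjusted p = 0.0160), while 9q fell short (ratio 1.53, 1.14 to 2.05, adjusted p = 0.0545). Within G-negative bands 4q (ratio 0.0845; exact test, adjusted p = 0.00962) and 11p (ratio 2.32; adjusted p = 0.0167) still passed. Arms 3p and 18q did not (exact test, adjusted p = 0.103 and 0.170), nor did 10p. Arm 10q passed in addition, and over all bands its ratio was above 1 but fell short (1.44, 1.06 to 1.95, exact test, adjusted p = 0.123). With only regions in both lines, 4q alone passed (ratio 0.119; exact test, adjusted p = 9.48e-04). Arm 11p fell short in the CAL27 list alone (ratio 1.79; exact test, adjusted p = 0.0590) and 18q in the SCC13 list alone (ratio 0.127; adjusted p = 0.0774).

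The listing of members in both lines did not differ detectably between places. Of 23 chromosomes 0 passed (0%), and 1 had an unadjusted p under 0.05. This was chromosome 10, with 16 of 42 members in both lines (38.1%, 23.6 to 54.4) against 58.9% elsewhere (Fisher's exact test, adjusted p = 0.226). Of 5 band classes 0 passed (0%) and none had an unadjusted p under 0.05, with 55.6 to 62.9% of members in both lines.

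Members were scattered over 403 of the 786 bands that held any p63 region, with at most 9 in a band. Band 1q32.1 held those 9, of 101 regions (8.91%, against 5.47% of all regions). Bands 17q25.3, 8q24.3, 11q13.1, 10q26.13 and 14q32.2 held 8 each, of 79, 73, 53, 49 and 43 regions (10.1 to 18.6%). The shortest of these was 11q13.1, the band of the AP-1 gene FOSL1, with 3.20 members per Mb. Band 10q26.13 is that of FGFR2, a keratinocyte growth factor receptor. In 17q25.3, the band of the differentiation regulator ZNF750, 7 of 8 were in both lists, against 57.8% of all members. These bands were named after their counts had been seen, and differences between them were not tested.

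In 20 bands that carry a gene known from epidermal or squamous biology, members made up 42 of 693 regions (6.06%, 4.40 to 8.10), close to the 5.47% of all regions. Of the 42, 32 were in both lists, 10 in CAL27 only and 0 in SCC13 only. Over all members these shares were 57.8%, 40.4% and 1.796%, and a difference in listing was not tested. Bands hold many genes, and no region was assigned to one. The TP63 band 3q28 held 2 members of 36 regions, 1954 bp at chr3:190086623-190088576 in both lists and 1664 bp at chr3:190251028-190252691 in CAL27 only. The TP73 band 1p36.32 held 4 of 29, 3 of them in both lists, and the CDKN1A band 6p21.2, named for the gene of the cell cycle inhibitor p21, held 2 of 28.

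In 11 bands of structural genes, members made up 23 of 427 regions (5.39%, 3.44 to 7.97), near the 5.47% of all regions, and differences between bands were not tested. The type II keratin band 12q13.13 held 2 members of 38 regions, the wider being 2183 bp at chr12:52914778-52916960, and the type I keratin band 17q21.2 held 1 of 47, in CAL27 only. In 1q21.3 all 5 members of 59 regions were in both lists. Bands of LAMB3 (1q32.2) and LAMA3 (18q11.2), which encode chains of a basement membrane laminin of keratinocytes, held 5 of 46 and 1 of 23. For the hemidesmosome integrin genes, 17q25.1 (ITGB4) held 6 of 53, 1 of them in both lists, and 2q31.1 (ITGA6) held 3 of 62, all in both lists. No member was found in 18q12.1 (desmosomal cadherins, 25 regions), 6p24.3 (desmoplakin, 23), 10q25.1 (the hemidesmosome collagen gene COL17A1, 21) or 6p12.1 (the hemidesmosome plakin gene DST, 30). The widest regions there were 1074, 1372, 1240 and 1433 bp. A count of 0 was common, as only 403 of the 786 bands with any p63 region held a member.

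In 6 bands of regulators and receptors, members made up 11 of 173 regions (6.36%, 3.22 to 11.1), also near the share of all regions. Members numbered 2 of 22 in 3q26.33 (SOX2, a squamous lineage factor), 3 of 34 in 7p22.1 (FOXK1, a forkhead factor), 1 of 16 in 13q22.1 (KLF5, an epithelial factor), 1 of 32 in 7p11.2 (EGFR, a growth factor receptor), 3 of 45 in 9q34.3 (NOTCH1, a receptor of differentiation) and 1 of 24 in 20p12.2 (JAG1, a Notch ligand). The EGFR band's member was 1842 bp at chr7:55199862-55201703, in both lists. The member in 20p12.2 was one of the 7 exactly at the limit, at chr20:11330430-11331929.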

How the data were processed

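The authors deposited 1 list of p63 regions per line, with chromosome, start and end and no score, standing for both p63 replicates, per the labels. Bowtie2, SAMtools 1.8 and MACS2, with the build hg19, appear in the submitters' processing notes with no roles. Peak threshold, use of the samples titled none, and joining of replicates are steps not given in the sources used here. Positions are printed counted from 1.

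Distinct rows of both lists were joined, and rows of at least 1500 bp were the members. No non-identical regions overlapped. Regions were placed by midpoint in the hg19 bands of circlize 0.4.16, with chromosome lengths from GenomeInfoDb 1.38.1 (R 4.3.3). Two-sided Fisher's exact tests compared shares, with p-values adjusted by Benjamini and Hochberg's method and a threshold of 0.05, over 23 chromosomes, 41 arms with at least 20 regions, 5 band classes and 17 neighbour comparisons. Intervals are 95%, exact Clopper-Pearson for shares and normal on the log scale for ratios. The functions were tested on simulated data. Python 3.11.15, scipy 1.17.1, numpy 2.4.6, pandas 2.3.3 and matplotlib 3.10.9 were used.

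The named items were the 10 widest regions, the 3 widest per line-only class, 3 on either side of the limit, the 5 closest pairs of members and every chromosome or band class that passed. The members and lists were chosen with earlier results of these data known. No genome or annotation of hg19 was used, so start sites, motifs, gene lists and sequences were not analysed here; genes are named with their bands as background.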

Additional observations from a re-analysis of the deposited data

How the results depend on the processing

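No paired analysis was possible because 1 list per line covers both numbered replicates, which also kept any replicate from being left out. Start sites and motifs were not run. The share of members in both lines was 57.8%, and it was 50.3% with a limit of 1200 bp and 62.2% with 2000 bp. The 5 chromosomes that passed became 0 with a limit of 2000 bp, where 156 members remain, 0 in G-negative bands, 1 with only regions in both lines, 3 in the CAL27 list and 1 in the SCC13 list. The 5 arms became 1 with only regions in both lines and 3 in G-negative bands, and the 3 band classes became 1 with only regions in both lines, settings that test fewer regions. All 7 alternatives for neighbours within 10 kb passed (ratio 1.23 to 1.61). Where the number of calls stayed within 1.5 times, the calls could still change: besides chromosomes 11 and 18 and arms 11p and 18q, as given above, the second darkest class fell short in the SCC13 list (exact test, adjusted p = 0.0714), and without the 5 chromosomes 4 classes passed. Of single chromosomes, arms and classes, 40 alternatives kept their call, 31 lost it with the direction kept, and none reversed; chromosome X and arm 10p had settings without members and no ratio. G-negative bands, single lists, arms and the omission of the 5 chromosomes were chosen after seeing the data. With the depth unknown, absence from a list does not show absence of binding.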
